A study of Mus musculus with 9 samples.

Results

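The genes described here are 9 members of the JAK-STAT pathway measured by RNA sequencing of mouse kidney: the kinases Jak1, Jak2, Jak3 and Tyk2, the transcription factors Stat3, Stat5a and Stat6, and the inhibitors Socs1 and Socs3. They were found by name in the deposited gene table and make up 9 of its 55385 genes. All 9 had enough reads to be tested. The study induced hyperuricemic nephropathy (HN), a kidney injury with raised uric acid, and treated some of the animals with pectolinarigenin (PEC), a plant flavonoid. The animals were C57BL/6 mice per the labels, without a stated genetic change, and the study's methods give C57BL/6J males aged 8 to 10 weeks. Control mice received neither agent, although the titles of their libraries also carry the letters HN, while their disease state is given as control. HN mice received adenine at 0.16 g/kg and potassium oxonate at 2.4 g/kg on alternate days over 4 weeks. PEC mice received the same agents and daily oral pectolinarigenin. The figure legends of the study name 25 mg/kg for the sequenced PEC group, and the labels give no dose. Each group held 3 libraries from separate mice, which are Control mice 2, 4 and 5, HN mice 4, 8 and 12, and PEC mice 1, 2 and 3. A chemically induced injury of whole kidney limits the model, since each library mixes all cell types of the organ.

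Cytokine receptors without kinase activity of their own signal through JAK kinases bound to their inner tails, which phosphorylate the receptor and then the STAT proteins docked on it. Phosphorylated STAT proteins pair, enter the nucleus and bind DNA, and the SOCS genes that they switch on encode proteins that block the receptor and its kinases. In kidney, signals of the interleukin-6 family through STAT3 are known in tubular injury and fibrosis, and interleukin-4 acts through STAT6 on macrophages.

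Libraries held 57714111 to 81069646 counted reads, with a median of 74397038. Levels are given as scaled FPKM, which is reads per kilobase of gene and per unit of effective library size, where the effective size includes edgeR's TMM factor. The deposited FPKM values are instead scaled by library totals. These scales differ here because TMM factors were 0.778 to 0.832 in Control, 1.15 to 1.22 in HN and 1.02 to 1.05 in PEC libraries. With library totals alone the median log2 fold change of all tested genes was 0.56 in HN against Control, -0.21 in PEC against HN and 0.40 in PEC against Control. With TMM factors it was -0.00 in HN against Control, -0.02 in PEC against HN and 0.04 in PEC against Control. All changes below are relative to the TMM scale unless another is named. A gene is called when its fold change is at least 1.5 and its unadjusted p is at most 0.05, limits that the study's methods also give without saying whether p was adjusted, and the adjusted p over all 21392 tested genes stands beside it.

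Several libraries stood apart from the rest of their group. A list of 11 interferon target genes summed to 423 scaled FPKM in HN mouse 8, against 143 and 167 in HN mice 4 and 12. The same list summed to 506 scaled FPKM in PEC mouse 3, against 69.5 and 81.8 in PEC mice 1 and 2, and Control mice held 41.6, 56.3 and 45.3. PEC mouse 3 also carried fat RNA: 5 adipose markers summed to 154 scaled FPKM there, to 7.34 in Control mouse 2, to 10.1 in HN mouse 12 and to at most 0.329 in the other libraries. Adipoq was the most abundant of these markers, by mean over the 9 libraries as for every list below, which need not be the order within a group, at 59.3 scaled FPKM in PEC mouse 3 and was at 0 in Control mice 4 and 5, HN mouse 8 and PEC mouse 2. Of the 5 adipose markers, 4 were tested and 0 were called in any comparison. Mitochondrially encoded genes took 13.3%, 12.9% and 16.3% of reads in Control mice, 6.01%, 6.22% and 6.34% in HN mice, and 13.0%, 10.3% and 13.6% in PEC mice. Ribosomal RNA loci took 0.296%, 1.72% and 0.302% of reads in the PEC mice and at most 0.00419% in the other libraries. In PEC against HN the median log2 fold change differed with gene length. When 16545 genes with a known length were ordered into 5 equal sets, it was 0.29 in the set of the shortest genes and -0.39 in that of the longest, in HN against Control these medians were -0.10 and 0.03, and in PEC against Control 0.17 and -0.30. By GC content, the set with the lowest had a median of -0.40 in PEC against HN and -0.38 in PEC against Control, and the other sets were at most at 0.20 and 0.24. Jak1, Stat3 and Stat5a lie in the set of the longest genes.

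The promoters of Socs3 and Socs1 are shown because these inhibitors are known targets of STAT proteins and had the largest changes among the 9 members in HN against Control. All 9 members had a RefSeq window from 250 bases before to 50 bases after a gene start (build GRCm38.p6), 10 windows in all because Stat5a has a pair. Searched on both strands were TTCNNNGAA, the spacing bound by most STAT proteins, TTCNNNNGAA, the wider spacing preferred by STAT6, and GAAANNGAAA, the core of the interferon response element. The last of these was added after the Socs1 window had been read. Capitals mark the matches. The Socs3 window lies at chr11:117969317-117969616 and the Socs1 window at chr16:10785487-10785786, both on the minus strand. The whole Socs3 window lies inside the gene span of the deposited table, chr11:117966079-117970047, which begins upstream of the RefSeq start. The Socs1 window holds the start of its gene in that table, chr16:10785536.

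Socs3: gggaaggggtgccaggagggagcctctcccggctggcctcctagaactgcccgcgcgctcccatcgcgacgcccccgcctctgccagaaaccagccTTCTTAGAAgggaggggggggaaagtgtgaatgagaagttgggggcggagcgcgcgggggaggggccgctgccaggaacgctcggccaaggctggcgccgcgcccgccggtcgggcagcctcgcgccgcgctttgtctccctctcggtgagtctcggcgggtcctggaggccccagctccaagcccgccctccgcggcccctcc

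Socs1: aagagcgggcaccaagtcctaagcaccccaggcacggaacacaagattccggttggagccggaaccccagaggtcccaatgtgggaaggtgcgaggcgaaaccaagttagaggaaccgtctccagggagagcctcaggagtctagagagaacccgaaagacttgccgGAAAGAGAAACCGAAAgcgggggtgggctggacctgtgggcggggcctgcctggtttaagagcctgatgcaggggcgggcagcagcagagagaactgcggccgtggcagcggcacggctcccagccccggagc

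In Socs3 the match TTCTTAGAA starts 154 bases before the RefSeq start, and so lies inside the longer gene span given below. In Socs1 the matches GAAAGAGAAA and GAAACCGAAA start 83 and 77 bases before the gene start and overlap each other. These are 2 of the 10 windows, and 17.3% of all 32851 windows of this length hold at least 1 of these motifs: 8.3% hold TTCNNNGAA, 6.95% hold TTCNNNNGAA and 3.44% hold GAAANNGAAA. The matches are a description of the letters, and binding was not measured.

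Comparing HN with Control asks what the injury did to these genes. Of the 9 members, 5 were called higher in HN mice (Jak3, Tyk2, Stat3, Socs1 and Socs3) and 0 lower, with a median log2 fold change of 0.65. At an unadjusted p of 0.05 without a minimum fold change, by DESeq2 and by limma, 0 were lower as well. Over all tested genes 19.7% were called higher and 16.5% lower. By library totals alone, where 38.5% of all genes were higher and 6.64% lower, 7 members were called higher, with Jak1 and Jak2 added. In bulk kidney RNA, more cells of a type that carries a transcript and more of that transcript in each cell cannot be told apart, and this holds for lower values as well. Statements below that groups did not overlap describe the mice and are not a test. An exact permutation test of 3 mice against 3 cannot give a p below 0.1. Jak1 and Jak2 separated in HN against Control without being called. The share of all tested genes that separate is not given here.

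Socs3 (ENSMUSG00000053113, chr11:117966079-117970047, minus strand, GRCm38) encodes the inhibitor that binds gp130, the shared receptor chain of the interleukin-6 family, and blocks its JAK kinases. Its scaled FPKM was 2.19, 2.62 and 0.850 in Control mice 2, 4 and 5, 36.7, 28.8 and 25.5 in HN mice 4, 8 and 12, and 18.1, 15.5 and 15.1 in PEC mice 1, 2 and 3. The 3 groups did not overlap, Control mouse 5 was the lowest library and HN mouse 4 the highest. Socs3 rose from a mean of 1.89 ± 0.924 to 30.3 ± 5.74 scaled FPKM (SD, n = 3), a log2 fold change of 4.0 (SE 0.38, 95% interval 3.16 to 4.85) and a fold change of 16.1. All 3 HN mice lay above all 3 Control mice, with adjusted p = 3.79e-05 (edgeR's quasi-likelihood test with Benjamini-Hochberg adjustment). Socs3 made up 5.26% of the summed scaled FPKM of the 8 SOCS family genes in Control mice and 48.1% in HN mice.

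Socs1 (ENSMUSG00000038037, chr16:10782240-10785536, minus strand) encodes the inhibitor that acts on the JAK kinases of interferon receptors and others. It was the least abundant member, at 0.220, 0.183 and 0.187 scaled FPKM in Control mice, 1.05, 1.5 and 1.32 in HN mice, and 0.214, 0.129 and 0.608 in PEC mice. HN mice stood above all others, while PEC mice overlapped the Control mice, with PEC mouse 3 above the other PEC mice. These levels rest on 37 to 44 reads in Control, 289 to 474 in HN and 28 to 119 in PEC libraries. Socs1 rose in HN with a log2 fold change of 2.71 (SE 0.52, 95% interval 1.54 to 3.88; adjusted p = 0.00250), in 3 of 3 HN mice. Its size depended on the processing, from 1.13 to 3.27 over all alternatives and from 2.59 to 2.84 with 1 mouse left out.

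The other SOCS family genes give the setting for these inhibitors. Of the 8 genes tested, 3 were called higher in HN (Socs1, Socs2 and Socs3) and 1 lower (Socs7), with a median log2 fold change of 0.05 that turned to -0.19 with a gene length offset and to -0.04 without HN mouse 8. Socs2, an inhibitor of growth hormone signalling, had a log2 fold change of 1.05 (adjusted p = 0.0231, groups not overlapping). Socs7 fell with a log2 fold change of -0.66 (adjusted p = 0.000663), from 8.94, 8.53 and 9.23 to 6.37, 5.34 and 5.21 scaled FPKM. This call rests on the TMM scale: Socs7 had -0.10 by library totals alone and -0.11 by limma on the deposited FPKM, and was called by neither. Socs4, Socs5 and Socs6 had log2 fold changes of -0.07, -0.07 and 0.17 and were not called. Cish, an inhibitor induced through STAT5, stood at 17.0 scaled FPKM in Control mouse 4, against 3.75 and 3.04 in Control mice 2 and 5. Its log2 fold change of -0.18 became 1.05 without that mouse and was then called higher (adjusted p = 0.00518).

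**Figure D1:**
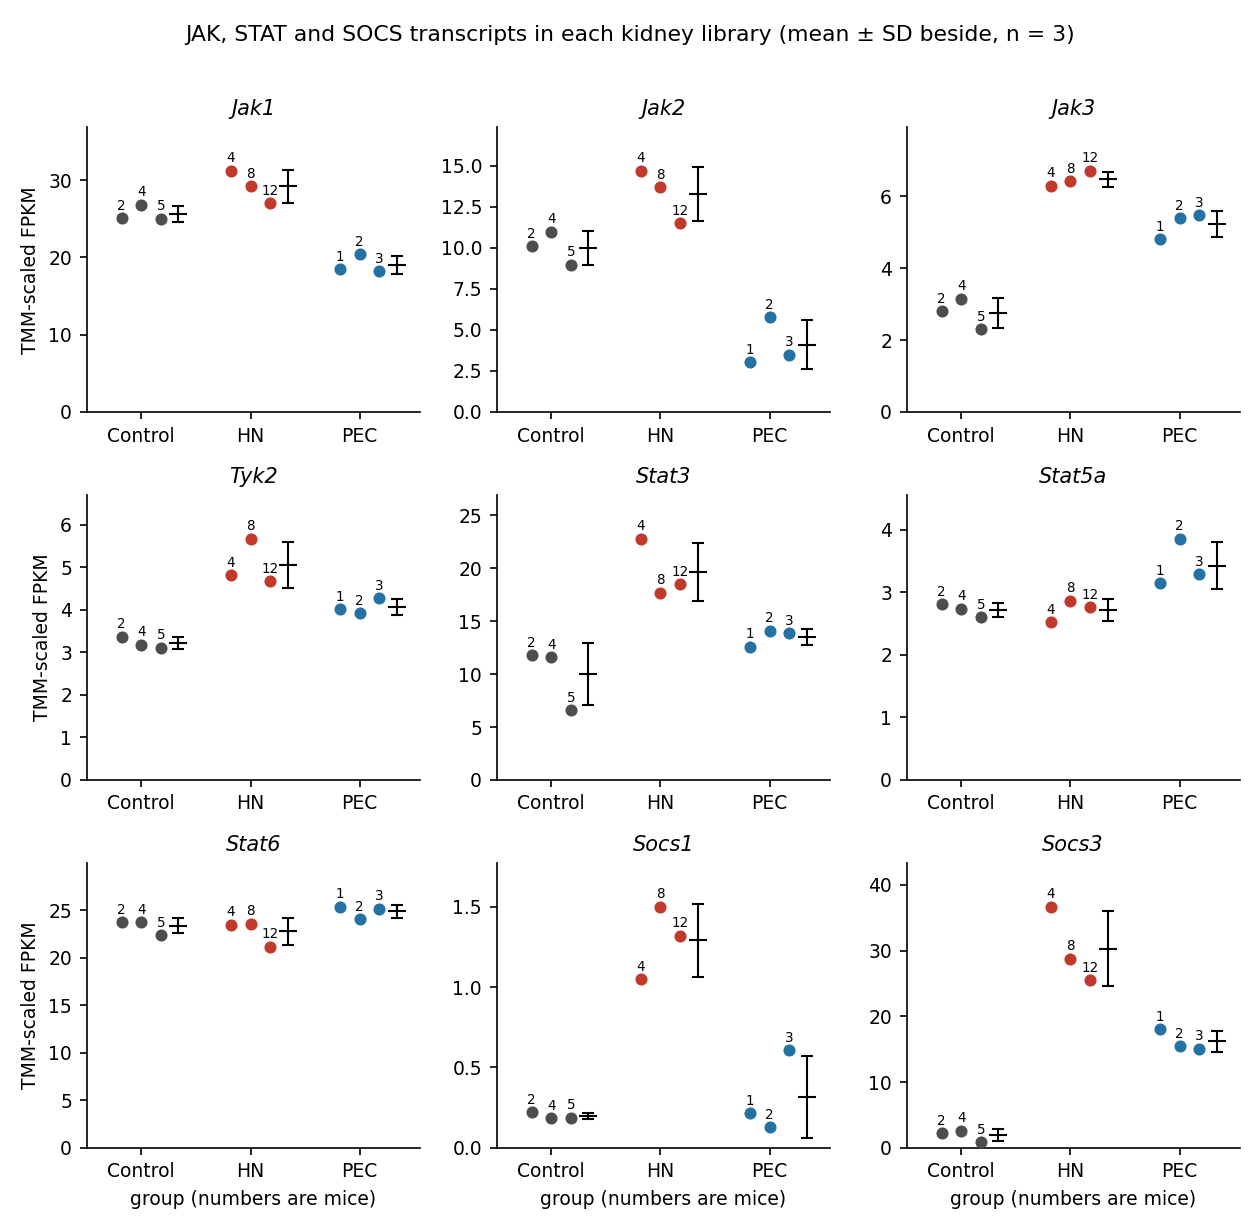
Scaled FPKM of the 9 members in each mouse, with the group mean and SD, on a vertical axis starting at 0 for each gene. Socs3 lies between 25.5 and 36.7 in HN mice and between 0.850 and 2.62 in Control mice, while Stat6 lies between 21.2 and 25.4 in all groups.

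Among the kinases, Jak3 (ENSMUSG00000031805, chr8:71676296-71690575, plus strand) pairs with the common gamma chain of the receptors for interleukin-2 and its relatives, and is known mainly from blood cells. Jak3 was at 2.80, 3.15 and 2.30 scaled FPKM in Control mice, 6.30, 6.43 and 6.71 in HN mice, and 4.81, 5.40 and 5.48 in PEC mice. HN mice were the highest, PEC mice lay between, and no groups overlapped. The HN rise had a log2 fold change of 1.24 (SE 0.12, 95% interval 0.96 to 1.51; adjusted p = 5.19e-05), in 3 of 3 HN mice.

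Tyk2 (ENSMUSG00000032175, chr9:21104068-21131243, minus strand) serves the receptors for type I interferons and interleukin-10, among others. Tyk2 was at 3.37, 3.18 and 3.11 scaled FPKM in Control mice, 4.81, 5.67 and 4.68 in HN mice, and 4.02, 3.92 and 4.27 in PEC mice. HN mouse 8 was the highest library, and the HN and Control mice did not overlap. Its log2 fold change in HN was 0.65 (SE 0.10, 95% interval 0.43 to 0.87; adjusted p = 0.000640), close to the smallest change that can be called. Without HN mouse 8 it was 0.56, with a gene length offset 0.40 and with an offset for length and GC content, chosen after seeing the data, 0.30, and none of these was called.

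Jak1 (ENSMUSG00000028530, chr4:101152367-101265282, minus strand) takes part in signalling by gp130, interferon and common gamma chain receptors. It was the most abundant kinase in every group by scaled FPKM, with 25.1, 26.8 and 25 in Control mice, 31.2, 29.2 and 27.0 in HN mice, and 18.5, 20.4 and 18.2 in PEC mice. HN mice lay just above the Control mice without overlap, and PEC mice lay below both. The log2 fold change in HN was 0.19 (SE 0.08, 95% interval -0.00 to 0.37; adjusted p = 0.108) and was not called, and by library totals alone it was 0.74 and called higher.

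Jak2 (ENSMUSG00000024789, chr19:29251828-29313080, plus strand) is the kinase of the receptors for growth hormone, erythropoietin and interferon gamma. Jak2 was at 10.1, 11 and 8.97 scaled FPKM in Control mice, 14.7, 13.7 and 11.5 in HN mice, and 3.04, 5.79 and 3.49 in PEC mice. Every HN mouse was above every Control mouse, and the PEC mice were the lowest, with PEC mouse 2 above the other PEC mice. Its log2 fold change in HN was 0.40 (SE 0.22, 95% interval -0.10 to 0.90; adjusted p = 0.182) and not called, and by library totals alone it was 0.95 and called higher.

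In Control mice the order of the kinases by mean scaled FPKM was Jak1 at 25.6 ± 1.04, Jak2 in a range of 8.97 to 11, Tyk2 at 3.22 ± 0.133 and Jak3 at 2.75 ± 0.425. The ranges of Tyk2 and Jak3 overlapped. In HN mice the order was Jak1 at 29.2 ± 2.10, Jak2 at 13.3 ± 1.63, Jak3 at 6.48 ± 0.210 and Tyk2 at 5.05 ± 0.539, with no overlap between neighbours. In PEC mice Jak1 was at 19.0 ± 1.2 and Jak3 at 5.23 ± 0.369, while Jak2 at 4.11 ± 1.47 and Tyk2 at 4.07 ± 0.184 did not differ beyond their spread, and the range of Jak2 overlapped that of Jak3 as well. The Jak2 share of the summed scaled FPKM of the 4 kinases was 24% in Control mice, 24.5% in HN mice and 12.5% in PEC mice, and the Jak3 share was 6.58%, 12.1% and 16.2%.

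Stat3 (ENSMUSG00000004040, chr11:100885098-100939540, minus strand) encodes the factor activated by the interleukin-6 family and interleukin-10. Stat3 was at 11.8, 11.6 and 6.62 scaled FPKM in Control mice, 22.8, 17.7 and 18.5 in HN mice, and 12.6, 14.1 and 13.9 in PEC mice. The groups did not overlap, Control mouse 5 was the lowest library and HN mouse 4 the highest. In HN the log2 fold change was 0.97 (SE 0.21, 95% interval 0.51 to 1.44; adjusted p = 0.00432), a change of 1.96-fold in size, in 3 of 3 HN mice.

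Stat5a (ENSMUSG00000004043, chr11:100859351-100885169, plus strand) encodes a factor activated by prolactin, growth hormone and interleukin-2, and Stat6 (ENSMUSG00000002147, chr10:127642986-127660957, plus strand) the factor of interleukin-4 and interleukin-13. Stat5a was at 2.81, 2.74 and 2.6 scaled FPKM in Control mice, 2.52, 2.87 and 2.77 in HN mice, and 3.15, 3.86 and 3.29 in PEC mice. HN and Control mice overlapped and PEC mice lay above both. Stat6 was at 23.8, 23.8 and 22.4 scaled FPKM in Control mice, 23.5, 23.6 and 21.2 in HN mice, and 25.4, 24.1 and 25.2 in PEC mice. By mean scaled FPKM Stat6 led the 3 STAT members in every group, although in HN mice its range overlapped that of Stat3, and Stat5a was the lowest. Its HN and Control values overlapped, and its log2 fold change in HN was -0.04 (95% interval -0.20 to 0.13; adjusted p = 0.734), while that of Stat5a was 0.00 (95% interval -0.23 to 0.24; adjusted p = 0.988). On the deposited FPKM scale the ratio of HN to Control means was 1.41 for Stat6 and 1.45 for Stat5a.

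Across the 6 STAT genes listed, 3 were called higher in HN and 0 lower: Stat3, Stat2 and Stat4. Stat2, a factor of type I interferon signalling, had a log2 fold change of 1.25 (adjusted p = 0.101), with 9.37 scaled FPKM in HN mouse 8 and 4.30 and 4.34 in the other HN mice. Without HN mouse 8, Stat2 had 0.77 and was not called, which left 2 STAT genes called. With HN mouse 8 and PEC mouse 3 both left out, a choice made after seeing the data, Stat2 had 0.76 and was called higher. Its call was also lost without any single Control mouse, at 1.11 to 1.37. Stat4, the factor of interleukin-12, had a log2 fold change of 2.98 (adjusted p = 0.000722; 3.66 without Control mouse 5) at a mean below 1 scaled FPKM in every group, and Stat5b, the close relative of Stat5a, had -0.24 and was not called. The Stat6 share of summed scaled FPKM of the 6 STAT genes was 48.7% in Control and 38.1% in HN mice.

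Neighbouring genes and shared sequence bear on some of these counts, since the table's method of assigning reads to strands is not stated. The ends of Stat3 and Stat5a overlap by 72 exon bases on opposite strands of chromosome 11. Jak3 shares 404 exon bases with Insl3 on the same strand, and on opposite strands Tyk2 shares 554 with 1700084C06Rik, Stat6 40 with Nab2 and Jak1 4 with Raver2. Insl3 had at most 35 reads in a library, 1700084C06Rik at most 7 and Raver2 at most 293. Nab2 reached 4069 reads, and Stat3 reached 20511 where Stat5a had at most 2214. What these overlaps add to the counts of Stat5a and Stat6 was not tested. Of the 50-base stretches of Stat5a transcripts, 8.52% also occur in another gene, most of them in Stat5b. The shares were 7.52% for Tyk2, 7.21% for Jak3, 0.555% for Stat3 and 0 for the other 5 members.

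**Figure D2:**
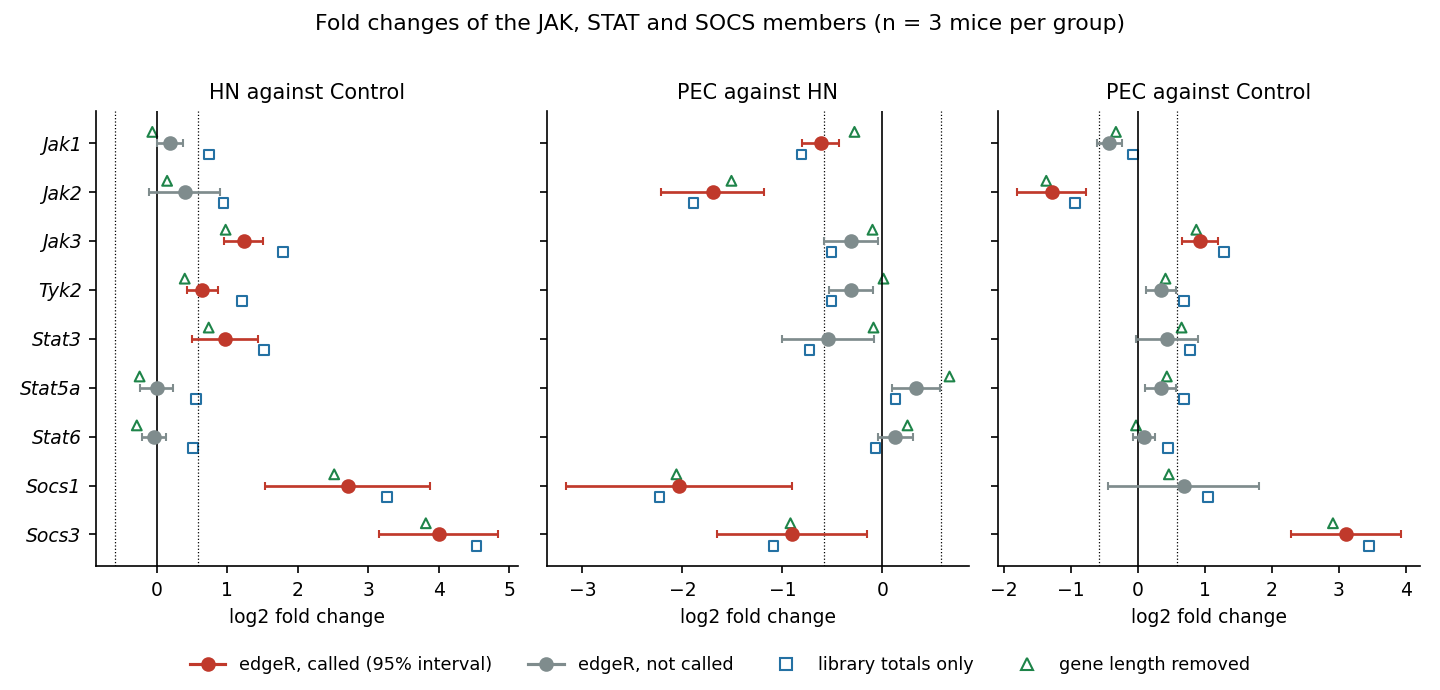
Log2 fold change of each member in the 3 comparisons, with 95% intervals from edgeR, red where called and grey where not, and dotted lines at a fold change of 1.5. From left to right, Socs3 is at 4.0, -0.90 and 3.10 and Jak2 at 0.40, -1.69 and -1.29; open squares give library totals alone and open triangles the gene length offset.

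Upstream of the kinases are the ligands of gp130. Of 9 gp130 cytokine genes tested, 7 were called higher and 0 lower, with a median log2 fold change of 3.11, and their summed level was 6.74, 6.29 and 5.75 scaled FPKM in Control mice and 27.9, 27.0 and 21.3 in HN mice. Clcf1 was the most abundant over the 9 libraries, though not within Control mice, at a mean of 1.68 ± 0.419 in Control and 8.80 ± 1.36 scaled FPKM in HN mice, with a log2 fold change of 2.39 (adjusted p = 3.14e-05). Lif and Osm, which signal through gp130 with their own receptor chains, had log2 fold changes of 4.89 (adjusted p = 9.32e-06) and 3.46 (adjusted p = 0.000187), each in 3 of 3 HN mice, and Ebi3 had 3.34 (adjusted p = 0.00200), or 4.32 without Control mouse 4. Il6 had 0 reads in each Control library, which is a level below 0.0181 scaled FPKM at a floor of 3 reads per library. It had 112, 66 and 71 reads in HN mice 4, 8 and 12, so it was at least 19.0-fold higher in HN, and the median of the list with Il6 at that bound was also 3.11. This floor covers counting error alone.

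Receptor genes were mixed. Of 6 gp130 receptor genes 2 were called higher, Osmr at a log2 fold change of 2.0 and Il6ra at 1.09, and 1 lower, Il11ra1 at -0.84 (adjusted p = 6.16e-05, 0.00405 and 3.78e-05), and by library totals alone 4 were higher and 0 lower. Il6st, which encodes gp130 and was the most abundant of them, was not called at 0.23. Of 8 interferon and interleukin-10 receptor genes 6 were higher and 1 lower, with Il10ra at 2.88, Ifngr1 at 1.53, Ifngr2 at 1.47 and Il22ra1 at -1.12. The call of Il22ra1 (adjusted p = 0.0872) was lost without HN mouse 4 or 12 or any single Control mouse, at -1.22 to -0.80. Of 9 genes of the common gamma chain and interleukin-4 receptors 6 were higher and 1 lower, with the largest log2 fold changes among called genes in Il7r at 3.47, Il21r at 2.73, Il2ra at 2.19 and Il2rb at 2.15, and without Control mouse 4 Il7r had 4.17. The lower gene was Il15ra, at -0.81, named after its values were seen, and the most abundant was Il13ra1, at 0.37 and not called. Of 7 hormone and growth factor receptor genes 4 were higher and 2 lower. Csf3r, Csf2rb, Prlr and Csf2ra had log2 fold changes of 2.86, 2.26, 2.01 and 1.91, and without Control mouse 4 Prlr had 3.04. Ghr, the most abundant receptor of that list, was lower, at 89.5, 93.9 and 95.3 scaled FPKM in Control and 29.2, 31.5 and 33.2 in HN mice, with a log2 fold change of -1.57 (adjusted p = 1.67e-05). Epor was also lower, at -1.07 (adjusted p = 0.00362), and was chosen after its values were seen. Of the receptor genes called lower, only Ghr was also called lower by library totals alone or by limma on the deposited FPKM. By library totals Il11ra1, Il22ra1, Il15ra and Epor had -0.28, -0.55, -0.25 and -0.51.

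Among 10 genes of other inhibitors, such as phosphatases and PIAS proteins, 3 were called higher in HN and 0 lower. These were Ptprc at a log2 fold change of 2.46, which is also a leukocyte marker, Usp18 at 2.31 and Ptpn6 at 0.79. Usp18 was not called without HN mouse 8 (1.56) or Control mouse 2 (2.17). Ptpn11, the most abundant, was not called at -0.06. The list's median of 0.21 turned to -0.02 with the gene length offset.

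Downstream, 17 of 20 STAT3 target genes were called higher in HN and 0 lower, with a median log2 fold change of 1.91. Socs3 and Stat3 themselves are among the 20. This list, like the others, was chosen with earlier results of these data known, so its count is not an independent test. Lcn2, a secreted iron-binding protein of injured tubules and the most abundant of the list over the 9 libraries, was at 1.67, 2.4 and 0.849 scaled FPKM in Control mice and 153, 117 and 112 in HN mice, with a log2 fold change of 6.28 (adjusted p = 2.69e-05). Timp1, an inhibitor of matrix proteases, had 5.69, and the fibrinogen chains Fgb and Fgg had 4.16 and 4.15. For each of these genes all 3 HN mice lay above all 3 Control mice.

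Of 11 interferon target genes 10 were called higher in HN, with a median log2 fold change of 2.35, and 6 were called without HN mouse 8. Isg15 was at 25, 126 and 33.7 scaled FPKM in HN mice 4, 8 and 12, with a log2 fold change of 3.53 (adjusted p = 0.0392), and Irf7, Cxcl10 and Gbp3 had 3.35, 3.07 and 2.84. Without HN mouse 8, Isg15 had 2.46 and Irf7 2.49, and neither was called. Irf7 was also not called without any single Control mouse (3.23 to 3.57), nor Isg15 without Control mouse 5 (3.47). Ifit3, the most abundant over the 9 libraries, had 1.70 and was not called, and it had 1.01 without HN mouse 8 and 1.97, called higher, without HN mouse 4. With HN mouse 8 and PEC mouse 3 both left out, a choice made after seeing the data, 11 of the 11 genes were called higher.

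Of 6 STAT5 target genes 3 were called higher, Igf1 at a log2 fold change of 1.91 (2.78 without Control mouse 5), Pim1 at 1.08 and Socs2 at 1.05, and the most abundant, Ccnd1, was not called at -0.11. Bcl6, in that list and chosen after its values were seen, stood at 19.9 scaled FPKM in Control mouse 5, against 5.14 and 3.33 in Control mice 2 and 4, and its log2 fold change of -0.26 became 0.89 without that mouse. Of 6 STAT6 target genes 5 were called higher. Mrc1, a receptor of macrophages and the most abundant of them over the 9 libraries, was at 0.630, 0.709 and 0.579 scaled FPKM in Control mice and 12.9, 9.50 and 9.77 in HN mice, with a log2 fold change of 4.07 (adjusted p = 1.17e-06). Retnla, Ccl24 and Pdcd1lg2 had at most 8 reads in any Control library. With Control counts raised to the floor used for Il6, they were at least 22.7-fold, 7.24-fold and 7.15-fold higher, and with these bounds the list's median was 3.15. Without Control mouse 2, the only one with Retnla reads, its bound was 35.3-fold. Ccl24 was not called without Control mouse 4 (3.76) or 5 (3.77). Stat6 itself was not called, as given above.

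Cell type markers differed between HN and Control mice as well. Of 15 leukocyte markers 12 were called higher in HN and 0 lower, and their summed level was 38.5, 45.1 and 37.8 scaled FPKM in Control mice, 629, 567 and 529 in HN mice, and 261, 266 and 322 in PEC mice. Lyz2 was the most abundant of them, Itgam, Lyz2, Adgre1 and Cd68 had log2 fold changes of 5.45, 4.73, 3.74 and 3.35, and no leukocyte marker was at 0 in any library. All 6 fibroblast markers were called higher in HN, and their sum was 52.4, 50.5 and 47.4 scaled FPKM in Control mice, 262, 261 and 239 in HN mice, and 154, 169 and 143 in PEC mice. Col3a1 was the most abundant over the 9 libraries, though not within Control or PEC mice, and had a log2 fold change of 4.20, and Col1a1, Dcn and Pdgfra had 4.26, 1.40 and 1.37. Of 13 kidney markers 7 were called lower and 0 higher, and by library totals alone 5 lower and 2 higher. Slc34a1, Slc5a2, Lrp2 and Aqp2 had log2 fold changes of -2.28, -1.91, -1.89 and -1.48. Kidney markers summed to 2906, 3162 and 2980 scaled FPKM in Control mice, 1939, 1663 and 1822 in HN mice, and 2167, 2292 and 1967 in PEC mice, with Umod the most abundant and no kidney or fibroblast marker at 0. The part of these cell types in the changes of the JAK, STAT and SOCS genes was not tested.

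**Figure D3:**
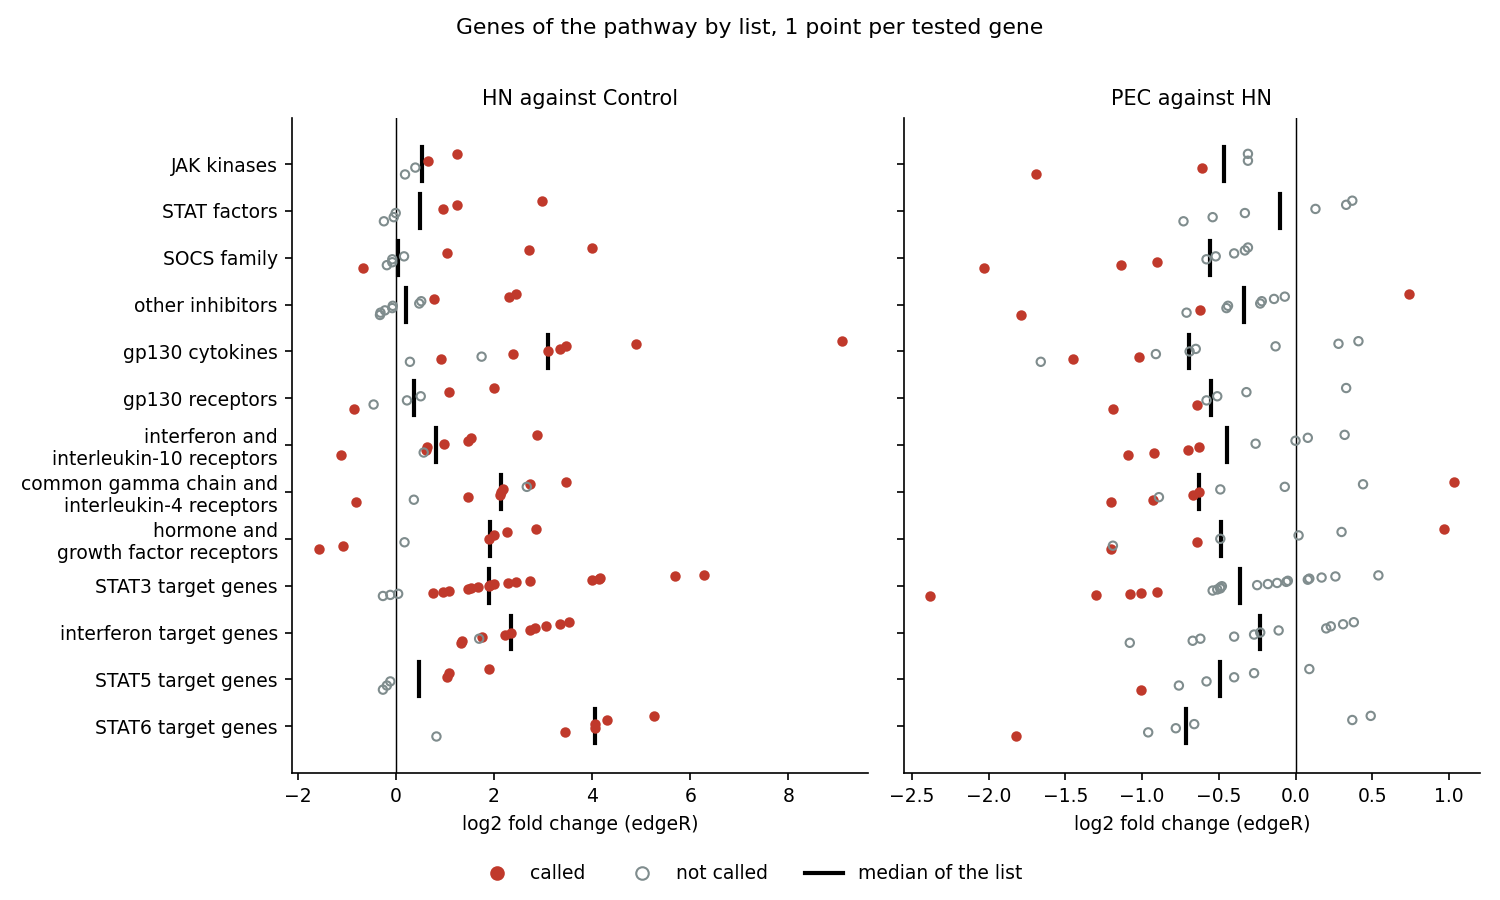
Log2 fold change of each tested gene of the pathway lists in HN against Control and in PEC against HN, with filled points called and bars at the list medians. The gp130 cytokine median is at 3.11 on the left and -0.69 on the right, and genes without reads in a Control library, such as Il6, are drawn at their fitted values, which are not bounds.

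Comparing PEC with HN gives what differed in the injured kidney under pectolinarigenin, and it shares the HN mice with the comparison above. PEC libraries also stood apart in ribosomal RNA loci, at 0.296% to 1.72% of reads against at most 0.00419% in the others. Their changes also varied with gene length and GC content, as given above. These library differences coincide with treatment, so the 2 cannot be told apart here. Their part in the changes below was not tested. Of the 9 members 0 were called higher and 4 lower (Jak1, Jak2, Socs1 and Socs3), with a median log2 fold change of -0.54, where 15.7% of all tested genes were called higher and 17.6% lower. At an unadjusted p of 0.05 without a minimum fold change, 1 member was higher, Stat5a, and 7 were lower, and by DESeq2 and limma 0 were called higher. By library totals alone 11.1% of all genes were higher and 24.5% lower. Stat5a had a log2 fold change of 0.33 (adjusted p = 0.0307), and with a gene length offset it had 0.67 and was called higher.

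Jak2 had the largest change among the kinases. From a mean of 13.3 ± 1.63 in HN to 4.11 ± 1.47 scaled FPKM in PEC mice (SD, n = 3), it fell with a log2 fold change of -1.69 (SE 0.23, 95% interval -2.21 to -1.18; adjusted p = 0.000511), a change of 3.23-fold in size, in 3 of 3 PEC mice. With the offsets for gene length alone and for length and GC content it had -1.51 and -1.37, called in both. Jak1 fell with a log2 fold change of -0.61 (SE 0.08, 95% interval -0.80 to -0.43; adjusted p = 0.000550), with every PEC mouse below every HN mouse. That is close to the smallest change that can be called: without HN mouse 4 or without PEC mouse 3 it was -0.56, with HN mouse 8 and PEC mouse 3 both left out -0.55, and with the length offset -0.28, none of them called. Jak3 and Tyk2 both had -0.31 (adjusted p = 0.0698 and 0.0310) and were not called.

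Socs1 fell with a log2 fold change of -2.03 (SE 0.50, 95% interval -3.16 to -0.90; adjusted p = 0.0112), every PEC mouse being below every HN mouse, and with -2.88 without PEC mouse 3, the PEC mouse with the highest Socs1. Over all alternatives the Socs1 value ran from -2.88 to -0.95, and with 1 mouse left out from -2.88 to -1.65. Socs3 fell from 30.3 ± 5.74 to 16.2 ± 1.61 scaled FPKM with a log2 fold change of -0.90 (SE 0.33, 95% interval -1.65 to -0.15; adjusted p = 0.0592), again with every PEC mouse below every HN mouse. The Socs3 call failed the adjustment over all genes. It was also lost without HN mouse 4 (-0.74, adjusted p = 0.173), without PEC mouse 2 (-0.87, adjusted p = 0.128) and without PEC mouse 3 (-0.83, adjusted p = 0.134). The adjusted p of Socs3 under these and the other alternatives ran from 0.00433 to 0.199.

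Within the SOCS family 3 of 8 genes were called lower in PEC and 0 higher: Socs1, Socs3 and Socs4. Socs4 was at 7.32, 6.37 and 6.90 scaled FPKM in HN and 3.13, 3.21 and 3.02 in PEC mice, with a log2 fold change of -1.14 (adjusted p = 3.75e-05). Cish, Socs2, Socs5, Socs6 and Socs7 had -0.40, -0.58, -0.33, -0.31 and -0.52 and were not called, and Socs6 was called lower without HN mouse 4 (-0.62).

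Of the 6 STAT genes 0 were called in PEC against HN by edgeR or DESeq2, and 1 by limma, while at an unadjusted p of 0.05 without a minimum fold change 1 was higher and 2 lower. Stat3 had a log2 fold change of -0.54 (SE 0.20, 95% interval -1.0 to -0.08; adjusted p = 0.0640), with every PEC mouse below every HN mouse and a change of 1.45-fold in size, just under the 1.5 needed. It was called lower by library totals alone (-0.73), by limma on the deposited FPKM (-0.71, adjusted p = 0.0156) and without HN mouse 8 (-0.61, adjusted p = 0.0831), and with the gene length offset it had -0.09. Stat6 had 0.13 (adjusted p = 0.203). Stat2, Stat4 and Stat5b had 0.37, -0.73 and -0.33, and without PEC mouse 3 Stat2 had -0.59 and was not called.

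The ligand and receptor genes had fewer calls here. Of 9 gp130 cytokine genes 2 were lower and 0 higher, with a median log2 fold change of -0.69. They were Osm at -1.02 (adjusted p = 0.0542) and, chosen after its values were seen, Il11 at -1.45. Clcf1, at 0.41, and Ebi3, at -0.91, were not called, nor was Lif at -0.65, which was called lower without HN mouse 12 (-0.77). Il6 had 15, 4 and 38 reads in PEC mice, a log2 fold change of -1.66 (adjusted p = 0.155) and no call, and without PEC mouse 3 it had -2.81 and was called lower. Of 6 gp130 receptor genes 2 were lower, Il6ra at -1.19 (adjusted p = 0.00334) and Lifr at -0.64 (adjusted p = 0.0959). Of the 8 interferon and interleukin-10 receptor genes 4 were lower, Il22ra1 at -1.09, Ifngr1 at -0.92, Ifngr2 at -0.70 and Il10ra at -0.63, and 2 were lower without HN mouse 8. Of the 9 common gamma chain and interleukin-4 receptor genes 4 were lower, Il7r at -1.20, Il2rb at -0.93, Il13ra1 at -0.67 and Il21r at -0.63, and 1, Il15ra at 1.03, was higher. Without HN mouse 8, 2 of them were lower.

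Of 7 hormone and growth factor receptor genes 2 were lower, Lepr at -1.20 and Csf2rb at -0.64, and 1, Epor at 0.97, was higher. Of the 10 other inhibitors 2 were lower, Ptprc at -1.79 (-2.42 without PEC mouse 2) and Ptpn1 at -0.62, and 1 higher, Pias3 at 0.74. Lifr, Lepr, Ptpn1 and Pias3 were chosen after their values were seen. By limma on log2(FPKM + 1) 0 genes of these lists or of the common gamma chain and interleukin-4 receptors were higher, so the higher calls of Epor, Pias3 and Il15ra were lost there, at 0.42, 0.40 and 0.55. With a pseudocount of 0.1 Epor and Il15ra were called, at 0.69 and 0.77. Several lower calls were lost with 1 mouse left out. Osm was not called without HN mouse 4 or 8 or PEC mouse 1 or 2 (-1.03 to -0.93), and Lifr not without any single HN mouse or PEC mouse 1 or 2 (-0.66 to -0.37). Il22ra1 lost its call without HN mouse 8 or 12 or PEC mouse 1 or 3 (-1.13 to -0.68), and Il21r without HN mouse 8 or 12 or PEC mouse 1 or 2 (-0.68 to -0.44). Il7r and Il10ra lost theirs without HN mouse 8 (-1.03 and -0.47) or PEC mouse 1 (-1.10 and -0.56). Csf2rb lost its call without HN mouse 4 or PEC mouse 1 or 3 (-0.57 to -0.53), and Ptpn1 without the same mice (-0.58 to -0.46).

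Most STAT3 targets that were high in HN mice were not called lower in PEC mice, which does not show that they were unchanged. Of the 20 genes 5 were called lower and 0 higher, where 17.6% of all tested genes were called lower and 15.7% higher. By library totals alone, where more of all genes were lower as given above, 10 were lower. The list's median log2 fold change was -0.42 without HN mouse 8 and -0.44 without PEC mouse 3, against -0.01 over all tested genes in both. With the gene length offset it was -0.23, against 0.09 over all tested genes. Lcn2 was at 98.7, 65.3 and 205 scaled FPKM in PEC mice, with PEC mouse 3 above every HN mouse, and had a log2 fold change of -0.05 (SE 0.43, adjusted p = 0.942), which was -0.61 and not called without that mouse. Fgb, Fgg and Timp1 had -0.06, -0.12 and -0.48. The 5 lower genes were Socs3 and, chosen after their values were seen, Cebpd at -2.38 (-1.74 without HN mouse 4), Junb at -1.30, Hif1a at -1.08 and Pim1 at -1.01. Junb was at 60.4, 50.8 and 48.6 scaled FPKM in HN and 21.0, 22.6 and 21.2 in PEC mice, which did not overlap. Hif1a was not called in HN against Control, at 0.05.

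Of the 11 interferon targets 0 were called in either direction, with a median log2 fold change of -0.23. Without PEC mouse 3 the count of lower genes was 9 and the median -1.32, with HN mouse 8 and PEC mouse 3 both left out 7 and -1.01, and without HN mouse 8 alone it was 0 with a median of 0.30. By DESeq2, by limma on the deposited FPKM and at an unadjusted p of 0.05 without a minimum fold change, 0 were lower or higher. Irf7 and Ifit3 changed sign, from 0.38 and 0.23 to -2.93 and -1.32 without PEC mouse 3. Of 6 STAT5 targets 1 was lower, Pim1, and of 6 STAT6 targets 1 was lower, Mrc1 at -1.82 (adjusted p = 4.22e-05). Of the 15 leukocyte markers 9 were lower and 0 higher, with Lyz2 at -1.08, Itgam at -1.55 and Adgre1 at -2.07 while Cd68 was not called at -0.19, and 5 were lower without HN mouse 8. Of 6 fibroblast markers 4 were lower, Pdgfra, Col3a1, Col1a1 and Dcn, at -1.47, -1.30, -0.92 and -0.74. Of 13 kidney markers 4 were higher and 0 lower, Slc34a1 at 1.23, Slc12a3 at 0.80, Lrp2 at 0.69 and Slc5a2 at 0.61, and by library totals alone 2 were higher and 1 lower. Slc12a3 was chosen after its values were seen, and the calls of Slc5a2 and Lrp2 were lost without PEC mouse 2 (0.44 and 0.55), that of Slc5a2 also without HN mouse 8 (0.50) or PEC mouse 1 (0.56). The part of these cell types in the lower Jak1, Jak2, Socs1 and Socs3 was not tested.

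Comparing PEC with Control shows what still differed from untreated kidney under pectolinarigenin, and it shares mice with both comparisons above. The differences of the PEC libraries in ribosomal RNA loci and by gene length and GC content hold here as well. Of the 9 members 2 were called higher (Jak3 and Socs3) and 1 lower (Jak2), with a median log2 fold change of 0.34, where 21.6% of all tested genes were called higher and 19.1% lower. By library totals alone, where 32.8% of all genes were higher and 10.3% lower, 5 members were higher.

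Socs3 had a log2 fold change of 3.10 (SE 0.36; adjusted p = 0.000144), 8.60-fold above Control, in 3 of 3 PEC mice. Jak3 had 0.93 (SE 0.12; adjusted p = 0.000285), also in 3 of 3 PEC mice. Jak2 fell to below its Control level, with a log2 fold change of -1.29 (SE 0.23; adjusted p = 0.00147), every PEC mouse being below every Control mouse. Side by side in the order of the comparisons given here, the log2 fold changes of Jak2 were 0.40, -1.69 and -1.29, and those of Socs3 were 4.0, -0.90 and 3.10.

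The other 6 members were not called in PEC against Control. Jak1 had a log2 fold change of -0.43 (adjusted p = 0.00266), with every PEC mouse below every Control mouse and a change under 1.5-fold. On the deposited FPKM scale these Jak1 groups overlapped, and the ratio of PEC to Control means was 0.924. Tyk2 and Stat5a both had 0.34 (adjusted p = 0.0193 and 0.0254), Stat3 had 0.43 (adjusted p = 0.111) and Stat6 had 0.09 (adjusted p = 0.343). Socs1 had 0.68 (SE 0.50; adjusted p = 0.297) with overlapping groups, which became -0.17 without PEC mouse 3 and 1.06 without PEC mouse 2, the latter called higher (adjusted p = 0.0757). Stat3 was called higher by library totals alone and with the gene length offset, at 0.78 and 0.65, and Tyk2 and Stat5a by library totals alone, both at 0.69.

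Among the other family genes, Socs4 at -1.21 and Socs7 at -1.18 were called lower in PEC against Control, and Stat2 at 1.62 and Stat4 at 2.25 higher. Stat2 was not called without PEC mouse 3 (0.66) or Control mouse 2 (1.48), and Stat4 had 2.93 without Control mouse 5. Cish had -0.58, and without Control mouse 4 it had 0.65 and was called higher. The JAK kinases had 1 gene called in each direction, the SOCS family 1 higher and 2 lower, and the medians of these families, -0.05 and -0.27, turned to 0.31 and 0.08 by library totals alone. Stat5b had a log2 fold change of -0.57 and was not called, but was called lower without Control mouse 5 (-0.61) or PEC mouse 2 (-0.65). Socs2, at 0.47, was called higher without Control mouse 5 (0.84), and Socs5 and Socs6, at -0.40 and -0.14, were not called.

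Many genes around the members still stood above Control in PEC mice. Of 9 gp130 cytokine genes 7 were called higher and 0 lower, by limma 4 of the 6 that passed its filter, and Il6 was at least 6.05-fold higher, a bound that is 2.60-fold without PEC mouse 3. Of 20 STAT3 targets 13 were higher and 1 lower, Hif1a at -1.03, with Lcn2 at 6.23 and Timp1 at 5.21. Of 11 interferon targets 9 were higher, 5 by limma and 4 without PEC mouse 3. Of 6 STAT6 targets 4 were higher: Retnla, at least 32.0-fold (49.7-fold without Control mouse 2), Pdcd1lg2, at least 4.52-fold, Mrc1 at a log2 fold change of 2.24 and, chosen after its values were seen, Ccl17 at 3.82. Of 6 STAT5 targets 1 was higher, Igf1 at 1.15 (2.02 without Control mouse 5), and it was not called without Control mouse 2 or 4 or PEC mouse 1 or 3 (0.81 to 1.17).

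Among the receptors, Osmr at 1.49 was the 1 higher and Lifr at -1.08 the 1 lower of 6 gp130 receptor genes. Of 8 interferon and interleukin-10 receptor genes 6 were higher and 1 lower, Il22ra1 at -2.21, and of 9 common gamma chain and interleukin-4 receptor genes 7 were higher and 0 lower, by limma 3 of the 7 that passed its filter. Of 7 hormone and growth factor receptor genes 3 were higher, Csf3r at 2.37, Csf2ra at 1.93 and Csf2rb at 1.63, and 2 lower, Ghr at -1.27 and Lepr at -1.02. Of 10 other inhibitors 1 was higher, Ptpn6 at 0.72, and 1 lower, Pias2 at -0.76, which was chosen after its values were seen. Of 15 leukocyte markers 10 were higher. Of 6 fibroblast markers 5 were higher, with Col1a1 at 3.34, and Pdgfra was the exception at -0.10. Of 13 kidney markers 6 were lower. The part of these cell types in the higher Socs3 and Jak3 was not tested.

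**Figure D4:**
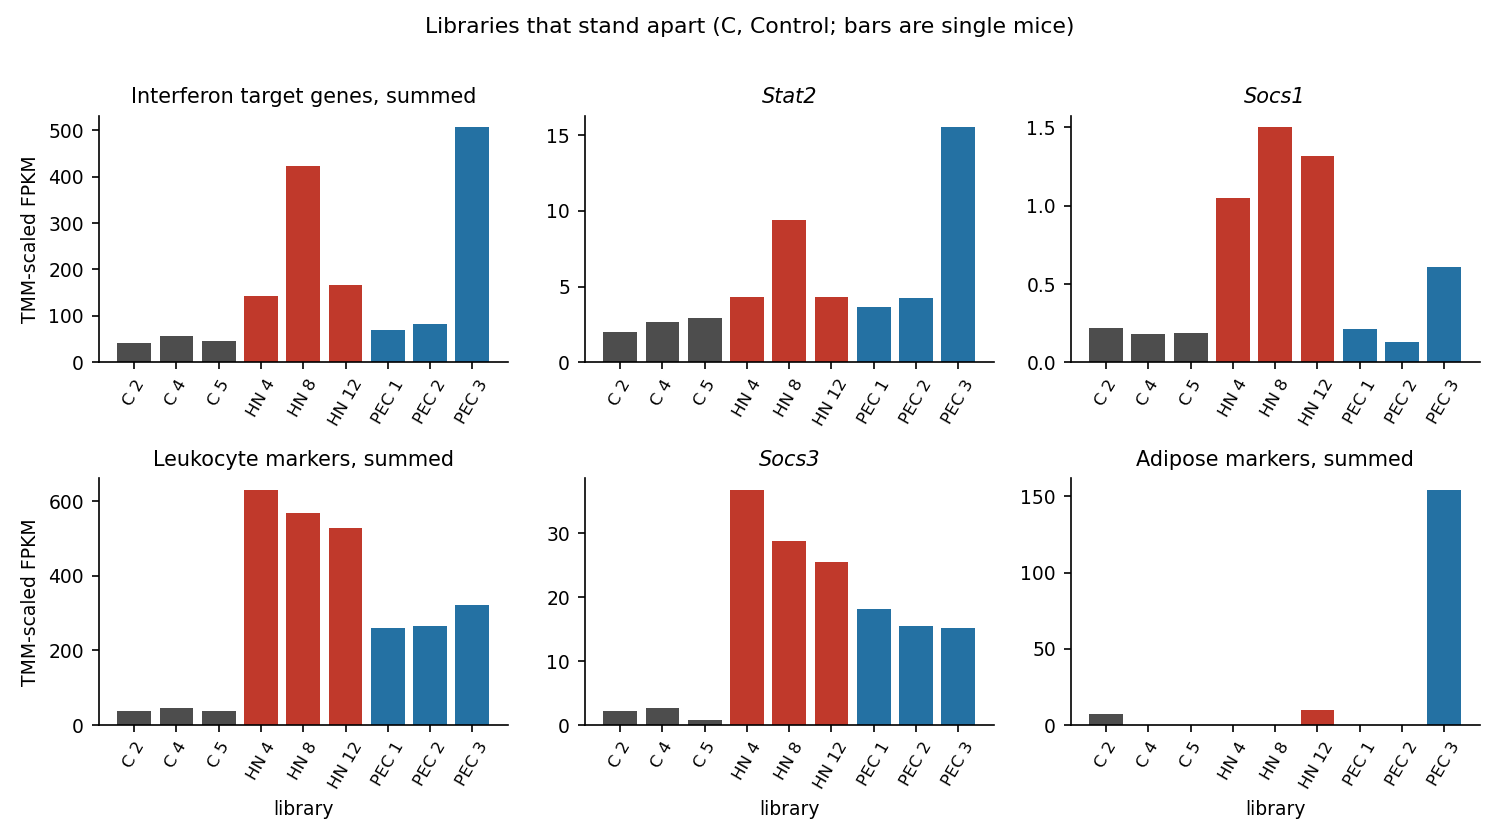
Scaled FPKM in each library, 1 bar per mouse, summed over interferon target genes, leukocyte markers and adipose markers, and for Stat2, Socs1 and Socs3. HN mouse 8 and PEC mouse 3 reach 423 and 506 in the interferon target sum, and no other library is above 167.

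Genes with the most similar profiles over the 9 libraries were found by Pearson correlation of log2 scaled counts, as a description over points that share the 3 groups. For Socs3 they were Osmr (r = 0.996), Tuba1b (0.995), Litaf (0.995), Anxa3 (0.995) and Relb (0.994). Osmr is the receptor chain for oncostatin M and stood at means of 1.96, 7.84 and 5.49 scaled FPKM in Control, HN and PEC mice. For Stat3 they were Homer3 (r = 0.985), Fam129b (0.979), Kpnb1 (0.974), Zfp651 (0.973) and Tmem119 (0.972). For Jak2 they were 4931406P16Rik (r = 0.984), Ston1 (0.983), Slc23a2 (0.982), Zfp609 (0.981) and Gm15387 (0.980). Ston1 had means of 4.58, 5.39 and 1.34 scaled FPKM in Control, HN and PEC mice, low in PEC like Jak2. Within the members, Jak3 and Socs3 had r = 0.984 and Jak1 and Jak2 had r = 0.983 over the same 9 libraries.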

How the data were processed

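Kidney RNA of 9 mice was measured by poly(A) RNA sequencing, and each library is 1 mouse per the labels. The authors deposited whole-number counts (unit: counts) and FPKM (unit: fpkm), which is per kilobase of gene and scaled by the total reads of the library. Processing notes with the series name the aligner Bowtie 0.12.2 and the builds mm8 and mm9, and the counting program is not given in the sources used here. In the table, however, 51991 of 55385 genes had the coordinates of GENCODE on GRCm38, and positions are given on that build. Depth was 57714111 to 81069646 counts a library. Counts were fitted with edgeR 4.0.16 in R 4.3.3 (TMM factors, filterByExpr, quasi-likelihood test, all 9 libraries in 1 fit), with Benjamini-Hochberg adjustment over 21392 genes. With 3 mice against 3, an exact permutation test has 10 splits and cannot give a two-sided p below 0.1. Interval level was 95%, and intervals cover the spread between mice. The fits were tested on simulated data.

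Alternatives were limma 3.58.1 on log2 FPKM with pseudocounts of 1 and 0.1, with and without a filter at a mean FPKM of 0.5, DESeq2 1.42.0, RLE factors, library totals alone, no mitochondrial or rRNA counts, no count filter, the FPKM filter, a length offset (spline with 5 degrees of freedom), fits of only the 2 groups compared, other call rules, and each mouse left out. An offset for length and GC content, and HN mouse 8 and PEC mouse 3 both left out, were added after seeing the data. Named in the text are all 9 members and the JAK, STAT and SOCS family genes listed, from each other list up to 4 called genes with the largest absolute log2 fold change in HN against Control, the list's most abundant gene and exceptions, and the 5 genes most correlated with Stat3, Jak2 and Socs3. The members and lists were chosen with earlier results of these data known. Some genes of the lists were taken out later, for a reason other than their values, and are not reported here.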

Additional observations from a re-analysis of the deposited data

How the results depend on the processing

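Of 594 values of the 9 members under 25 alternative settings, 545 kept their side of the threshold, 29 became called and 20 lost their call. Of the 545, 24 changed sign while not called in either. The median of all genes moves with the scaling, so the split of calls does too; otherwise the cause was not tested. By library totals alone 8228 genes were higher and 1421 lower in HN against Control, and 7018 higher and 2193 lower in PEC against Control. By limma on log2(FPKM + 1), log2(FPKM + 0.1) and without a filter, lower genes in HN against Control numbered 1043, 1242 and 1050, higher genes in PEC against HN 1389, 1791 and 1511, and lower genes in PEC against Control 1527, 1998 and 1529. A minimum fold change of 2 left, by its construction, 2113 lower in HN against Control, 2098 higher and 2131 lower in PEC against HN, and 2297 lower in PEC against Control. Under it 3 members were higher in HN against Control, 2 lower in PEC against HN and 1 higher in PEC against Control. In PEC against HN, 1 member was higher with the length offset and 1 by adjusted p without a minimum fold change, and lower members numbered 2 to 5 with 1 mouse left out and 2 without HN mouse 8 and PEC mouse 3. In PEC against Control, 5 members were higher with a pseudocount of 0.1 and 5 by library totals, and by adjusted p alone 4 were higher and 2 lower. With 1 mouse left out, Cish ran from -0.57 to 1.05 in HN against Control and from -0.97 to 0.65 in PEC against Control, Bcl6 from -0.67 to 0.89 in HN against Control, and in PEC against HN Irf7 from -2.93 to 1.24 and Ifit3 from -1.32 to 0.91, which had -2.06 and -0.63 with HN mouse 8 and PEC mouse 3 both left out. No paired analysis was possible because the groups share fewer than 2 replicate numbers and these name separate mice. Depth limits Socs1 most, with 28 reads in its lowest library. With 3 mice a group, smaller changes can be missed.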
